A study of Mus musculus with 12 samples.

Results

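The genes described here supply amino acids to the cell or belong to the response governed by the transcription factor ATF4. They are 36 genes given by symbol, of 55228 symbols in the table, and the list was drawn up with earlier results of these data known. They comprise 4 transcription regulators, 5 effectors of the stress response, 8 synthesis enzymes, 8 transporters and 11 aminoacyl-tRNA synthetases. RNA was sequenced from 12 cultures of mouse regulatory T cells (Tregs), 3 in each of 4 groups. Foxp3-GFP positive, CD25 positive Tregs came from the lymph nodes of 16 pooled NOD.Foxp3-GFP mice. The enriched CD4+ cells were divided into 3 parts, which were sorted on separate machines and activated separately, so that a replicate number marks a shared sort and not a separate animal. On day 2 each part was transduced with an empty vector (EV) or with a CD25t tether construct, 1G12t or 3A10t, in which an orthogonal IL-2 variant is joined to the orthogonal IL-2 receptor β chain. On day 4 IL-2 was washed out of the EV no IL-2, 1G12t and 3A10t cultures, and the EV+IL-2 cultures stayed in IL-2. Cells carrying the vector marker Thy1.1 were sorted on day 9, 5 days after the wash. The labels give a single medium for all 4 groups, a glutamine-free DMEM with added GlutaMax, nonessential amino acids and pyruvate.

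Cells keep charged transfer RNAs in step with demand through a pathway that begins with kinases of the translation factor eIF2. GCN2, one of these kinases, responds to uncharged transfer RNA, and PERK responds to unfolded protein in the endoplasmic reticulum. Phosphorylated eIF2 slows most translation but favors translation of Atf4 mRNA, so that ATF4 activity can change with little change in its transcript. ATF4 then binds, with C/EBP partners, to C/EBP-ATF response elements near genes for amino acid synthesis, transport and tRNA charging. In T cells, growth signals through mTORC1 also raise ATF4 and its metabolic targets.

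Values are TPM, which count transcripts after division by their length and are set to a fixed total in each library, and were divided here by a scaling factor for each library. A gene was tested where its mean was at least 1 TPM over all libraries, which 15043 genes and 32 of the 36 members reached. Atf5, Chac1, Slc1a4 and Cebpb had means of 0.595, 0.541, 0.367 and 0.791 TPM and were not tested. A gene was called where the Benjamini-Hochberg adjusted p from limma, over all tested genes, was under 0.05. Fold changes are on the log2(TPM + 1) scale. Read depth cannot be recovered from TPM and is unknown. Scaling factors ran from 0.854 to 1.093, both extremes lying in tether groups (3A10t replicate 2 and 1G12t replicate 3). The Treg genes Foxp3, Il2ra, Ctla4 and Ikzf2 were present in every library, Foxp3 at 369 to 510 TPM. Il2, part of the tether, averaged 18.2 TPM in 1G12t and 25.4 TPM in 3A10t against 0.339 TPM in EV no IL-2. Thy1, the gene of the vector marker, averaged 3290 TPM in EV no IL-2 and 3280 TPM in EV+IL-2, but 209 TPM in 1G12t and 229 TPM in 3A10t. Il2rb averaged 266 TPM in EV no IL-2, 453 TPM in EV+IL-2, 394 TPM in 1G12t and 371 TPM in 3A10t. What part these differences had in the tether results was not tested. Of 5 myeloid genes only Cst3, which other cells also express, had a mean above 1 TPM. The 5 together summed to 506 to 546 TPM in EV no IL-2, 506 to 555 TPM in EV+IL-2, 441 to 539 TPM in 1G12t and 539 to 764 TPM in 3A10t, nearly all of it Cst3, and the part of this in the results was not tested. All 4 B cell genes together summed to 20.9 to 27.2 TPM in 3A10t, above every EV no IL-2 library (15.5 to 17.9 TPM) and every EV+IL-2 library (14.5 to 17.4 TPM), and to 14.2 to 26.9 TPM in 1G12t. Ms4a1, a defining B cell gene, was at 0 to 0.668 TPM over all libraries, and what part the B cell genes had in the 3A10t results was not tested. The libraries are of bulk cells, in which more RNA per cell and more cells of a kind cannot be told apart.

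Several members are textbook targets of ATF4, which binds such elements, so that matches among them are not independent of how the list was made. RefSeq gave a window of 250 bases before to 50 bases after the transcript start (build GRCm38.p6) for 29 members, and none for Slc7a5, Slc1a5, Slc38a1, Cars, Lars, Nars and Wars. The letters TGATGNAA, a core of the C/EBP-ATF response element searched on both strands, occurred in 10 of the 29 members, against 4.51% of 27025 genes with a window and 2.72% of the tested genes among them. The stricter TGATGCAA, whose matches are all matches of TGATGNAA too, occurred in 7 members, in 1.03% of genes and in 0.771% of the tested genes. The E-box CACGTG, a palindrome, occurred in Aldh18a1, Aars, Iars and Tars, in 8.09% of genes and in 11.9% of the tested genes. The 10 members with TGATGNAA were Trib3, Chac1, Asns, Pycr1, Slc1a4 and the synthetases Aars, Gars, Iars, Tars and Yars. Matches from 4 of the roles follow as runs of 30 bases, to show the letters in each role that held them, 5′ to 3′ along the gene, with the match in capitals (TGATGNAA or its reverse complement). They lie at chr2:119351038-119351067 on the plus strand (Chac1), chr2:152344028-152344057 on the minus strand (Trib3), chr6:7693214-7693243 on the minus strand (Asns), chr11:20332699-20332728 on the minus strand (Slc1a4), chr13:49682126-49682155 on the plus strand (Iars) and chr15:11399655-11399684 on the minus strand (Tars).
Chac1: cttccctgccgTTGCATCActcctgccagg
Trib3: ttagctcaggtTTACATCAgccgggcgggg
Asns: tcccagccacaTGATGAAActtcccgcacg
Slc1a4: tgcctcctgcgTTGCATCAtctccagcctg
Iars: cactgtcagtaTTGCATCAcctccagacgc
Tars: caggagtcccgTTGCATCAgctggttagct

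The 3 members with the largest rise in IL-2, described next, had no TGATGNAA in their windows. For contrast, 100 bases are shown before the RefSeq start, or before an annotated exon in the window that began further upstream. They lie on the minus strand at chr3:98339991-98340090 (Phgdh), chr19:15925060-15925159 (Psat1) and chr4:132510502-132510601 (Sesn2). The Psat1 stretch lies inside the gene as annotated by GENCODE (chr19:15904678-15947337), which begins further upstream. Absence of these letters from this window says nothing of elements elsewhere in the gene.
Phgdh: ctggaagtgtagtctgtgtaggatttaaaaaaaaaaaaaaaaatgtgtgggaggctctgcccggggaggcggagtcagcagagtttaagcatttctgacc
Psat1: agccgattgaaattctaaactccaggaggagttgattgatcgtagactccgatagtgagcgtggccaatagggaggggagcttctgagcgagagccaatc
Sesn2: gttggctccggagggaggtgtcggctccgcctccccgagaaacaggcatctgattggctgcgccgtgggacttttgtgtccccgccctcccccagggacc

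Levels of the tested members spanned from 1.14 TPM for Pycr1, an enzyme of proline synthesis, to 156 TPM for Slc3a2, the heavy chain shared by several amino acid exchangers (means over 12 libraries). Among the synthetases, Nars averaged 155 TPM and Sars 122 TPM, whereas Aars and Iars averaged 31.1 and 31.5 TPM. Slc7a6 (124 TPM) and the glutamine transporter Slc1a5 (123 TPM) were the most abundant transporters after Slc3a2. The leucine transporter Slc7a5 averaged 11.1 TPM and asparagine synthetase, Asns, 6.59 TPM. Shmt2, the mitochondrial serine hydroxymethyltransferase, averaged 88.2 TPM and was the most abundant of the enzymes.

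**Figure D1:**
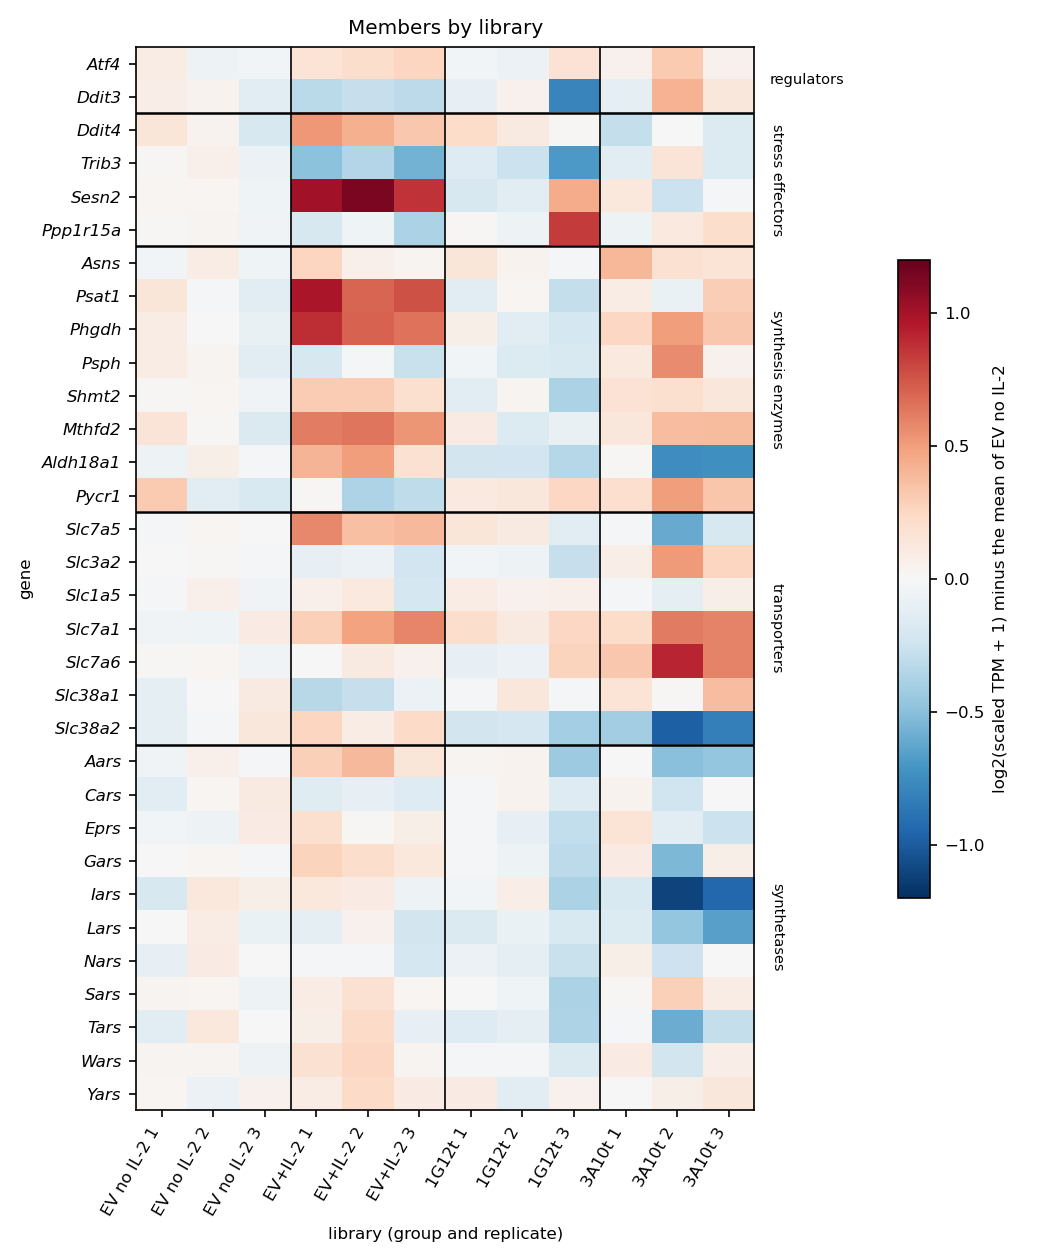
Each row is 1 of the 32 tested members, grouped by role, and each column 1 library. Color gives log2(scaled TPM + 1) minus the mean of the 3 EV no IL-2 libraries, red for higher and blue for lower, and the EV+IL-2 columns are reddest for Sesn2, Psat1, Phgdh and Mthfd2.

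With continued IL-2, some enzymes of serine and one-carbon metabolism and a few stress and transport genes were higher, and no synthetase was called. Between EV+IL-2 and EV no IL-2, 6 of the 32 tested members rose, beside 8.17% of all tested genes, and 1 fell, beside 5.13% of all tested genes. The median log2 fold change of the members was 0.11, beside -0.01 over all tested genes. The count was 4 members, all higher, when EV+IL-2 replicate 2 or either of EV no IL-2 replicates 2 and 3 was left out. Sesn2, Psat1, Phgdh and Mthfd2 were called under each of 17 alternative settings.

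Serine synthesis from a glycolytic intermediate takes 3 enzymes in turn, PHGDH, PSAT1 and PSPH. Phgdh, which encodes the first of them, measured 99.6, 88.1 and 84.5 TPM in EV+IL-2 against 57.2, 53.6 and 50.2 TPM in EV no IL-2. Every EV+IL-2 library was above every EV no IL-2 library, by 1.69-fold in the means and a log2 fold change of 0.75 ± 0.104 (SE, n = 3 a group, limma adjusted p = 0.00082). Psat1 measured 31.3, 25.7 and 26.8 TPM in EV+IL-2 against 17.1, 15.3 and 14 TPM, a log2 fold change of 0.81 ± 0.125 (adjusted p = 0.0015). The groups did not overlap for Psat1 either. Psph was not called, at 56.6 ± 5.17 TPM (mean ± SD, n = 3) in EV+IL-2 and 63.3 ± 5.0 TPM in EV no IL-2, with overlapping libraries. Psph shares 452 exonic bases with Cct6a on the opposite strand, and the library kit does not mark strand, so that reads of the pair could not be assigned by strand.

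The one-carbon enzymes use serine to load folate in mitochondria. Mthfd2, a mitochondrial folate dehydrogenase, measured 61.3, 62.3 and 57.6 TPM in EV+IL-2 and 44.4, 40.1 and 35.1 TPM in EV no IL-2. All EV+IL-2 libraries were higher, with a log2 fold change of 0.59 ± 0.109 (adjusted p = 0.0045). Shmt2, the step before, measured 103, 103 and 95.7 TPM against 84.2, 84.9 and 81.2 TPM. These libraries did not overlap, but the log2 fold change of 0.26 ± 0.0962 did not pass (adjusted p = 0.1). Aldh18a1, the entry enzyme of proline synthesis, measured 75.2, 80.0 and 64.2 TPM against 54.0, 59.3 and 55.9 TPM, again without overlap and without a call (log2 fold change 0.36 ± 0.178, adjusted p = 0.23). In a fit of only the 6 libraries compared, Shmt2 and Aldh18a1 both passed (limma adjusted p = 0.012 and 0.048). Asns, a textbook ATF4 target, averaged 6.62 and 6.03 TPM and overlapped between the groups.

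Of the stress effectors, Sesn2 rose the most of all members. It encodes sestrin 2, a leucine sensor that restrains mTORC1. Sesn2 measured 37.1, 40.5 and 33.5 TPM in EV+IL-2 and 18.3, 18.2 and 17.3 TPM in EV no IL-2, a 2.07-fold difference of means (log2 fold change 1.01 ± 0.161, adjusted p = 0.002). Ddit4, or REDD1, which also restrains mTORC1, measured 38.9, 36.5 and 33.9 TPM against 29.8, 27.7 and 23.4 TPM. The groups did not overlap (log2 fold change 0.42 ± 0.109, adjusted p = 0.026), but the call was lost without either of EV no IL-2 replicates 2 and 3 or EV+IL-2 replicates 1 and 2 (adjusted p from 0.062 to 0.11). Trib3, a pseudokinase induced by ATF4 and CHOP, went the other way, at 40.8, 45.1 and 38.9 TPM in EV+IL-2 and 58.5, 60.3 and 55.1 TPM in EV no IL-2. Trib3 was lower in every EV+IL-2 library (log2 fold change -0.47 ± 0.139, adjusted p = 0.049), and leaving out any single library of the 6 ended the call (adjusted p from 0.077 to 0.15). Ppp1r15a, the GADD34 subunit that returns eIF2 to its active form, averaged 71.3 ± 8.19 TPM in EV+IL-2 and 82.1 ± 2.04 TPM in EV no IL-2 and was not called.

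Neither of the 2 tested regulators was called, and 0 had an unadjusted p under 0.05 in this comparison. Atf4 measured 54.1, 55.8 and 57.5 TPM in EV+IL-2 and 51.1, 46.1 and 47.1 TPM in EV no IL-2. The EV+IL-2 libraries were all higher, by a log2 fold change of 0.21 ± 0.0962 that was not called (adjusted p = 0.19). Ddit3, which encodes the death-associated factor CHOP, measured 58.2, 60.1 and 58.4 TPM against 77.2, 75.1 and 66.8 TPM, lower in every library and likewise not called (log2 fold change -0.30 ± 0.196, adjusted p = 0.38). Both regulators passed in a fit of only the 6 libraries compared (limma adjusted p = 0.041 for Atf4 and 0.026 for Ddit3). The SD of Ddit3 was 17.9 TPM in 1G12t and 15.0 TPM in 3A10t, which enter the main fit. Ddit3 and Trib3, a regulator and its known target, were thus both below EV no IL-2 in all EV+IL-2 libraries, and Sesn2, Phgdh and Psat1 above it. Of the 6 members that rose, all had a promoter window and none held TGATGNAA, which 2.72% of the tested genes with a window held. At that share 6 genes would usually hold none, and elements outside the windows were not searched. Trib3, the 1 that fell, held TGATGNAA. So did Asns, Pycr1, Aars, Gars, Iars, Tars and Yars, which were tested and not called in either direction.

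Among the transporters, Slc7a1, which carries arginine and lysine into the cell, measured 24.1, 27.7 and 29.8 TPM in EV+IL-2 and 19.0, 18.8 and 21 TPM in EV no IL-2. It rose without overlap (log2 fold change 0.45 ± 0.118, adjusted p = 0.03), and lost its call without any of the 3 EV no IL-2 libraries or EV+IL-2 replicates 2 and 3 (adjusted p from 0.055 to 0.11). Slc7a5, the light chain of the leucine exchanger LAT1, measured 16.0, 13.6 and 13.9 TPM against 10.2, 10.6 and 10.4 TPM. These libraries did not overlap, but the log2 fold change of 0.44 ± 0.139 missed the threshold (adjusted p = 0.064). Slc7a5 passed after length correction (limma adjusted p = 0.012) and in a fit of only the 6 libraries compared (0.017). Slc3a2, the partner of Slc7a5, stood at 143, 146 and 131 TPM against 154, 155 and 152 TPM, slightly lower in every EV+IL-2 library and not called (log2 fold change -0.14 ± 0.11, adjusted p = 0.5). The glutamine transporters Slc1a5 (121 and 122 TPM) and Slc38a2 (90.1 and 78.7 TPM) overlapped between EV+IL-2 and EV no IL-2.

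None of the 11 synthetases was called by limma in EV+IL-2 against EV no IL-2, and 0 had an unadjusted p under 0.05. Their log2 fold changes ran from -0.13 for Cars to 0.28 for Aars, with a median of 0.09. Aars averaged 38.4 ± 3.43 TPM in EV+IL-2 and 31.5 ± 1.23 TPM in EV no IL-2. Aars shares 1326 exonic bases with Exosc6 on the same strand, so part of its signal is uncertain. Nars averaged 154 and 162 TPM, and Lars 46.5 and 49.6 TPM. Eprs averaged 64.3 ± 4.09 TPM in EV+IL-2 and 60.2 ± 3.58 TPM in EV no IL-2, and Tars 59.6 ± 7.02 and 56.7 ± 5.19 TPM, both with overlapping libraries. Over all 12 libraries Gars averaged 79.9 TPM, Wars 57.5 TPM, Yars 40.8 TPM and Cars 33.8 TPM.

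**Figure D2:**
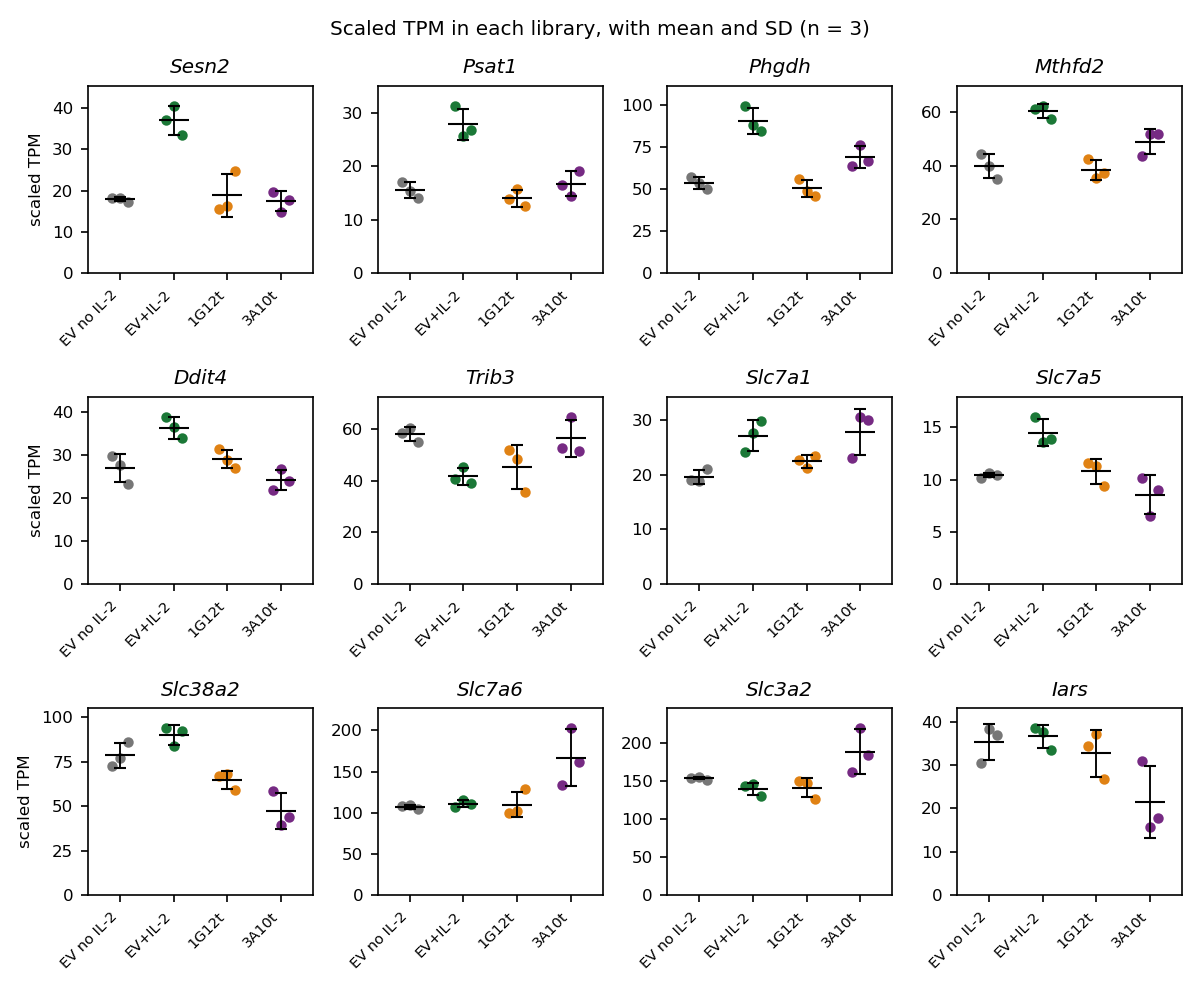
Scaled TPM of 12 members in each library, with 3 points a group, the mean as a bar and the SD as whiskers, each vertical axis starting at 0. Sesn2, Psat1, Phgdh and Mthfd2 stand apart in EV+IL-2, and Slc38a2, Slc7a6 and Iars in 3A10t replicates 2 and 3.

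Other genes of these pathways were taken from lists, and are set beside the 8.17% of all tested genes that rose with IL-2 and the 5.13% that fell. Of 20 other enzymes of amino acid and folate metabolism, all tested, 4 rose with IL-2 and 0 fell (0 lower at an unadjusted p under 0.05 in limma). Gldc, the glycine cleavage enzyme, averaged 15.8 ± 1.77 TPM in EV+IL-2 against 0.941 ± 0.174 TPM without IL-2 (log2 fold change 3.12 ± 0.165, adjusted p = 2.4e-06). Shmt1, the cytosolic counterpart of Shmt2, averaged 21.1 and 9.84 TPM (log2 fold change 1.03), and Tyms, the thymidylate synthase, also rose (1.70).

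Of 20 other targets attributed to ATF4, 14 were tested and 5 rose, beside 8.17% of all tested genes. Stc2, a secreted glycoprotein, averaged 71.6 ± 2.5 TPM in EV+IL-2 against 15.7 ± 0.152 TPM without IL-2 (log2 fold change 2.12 ± 0.101, adjusted p = 1.4e-06). Nupr1, a stress-induced chromatin protein, averaged 5.66 and 1.13 TPM and Gpt2, the mitochondrial alanine aminotransferase, 6.54 and 2.62 TPM. Vegfa (adjusted p = 0.049, and 0.065 with the replicate number as a block) and Ero1l completed the 5. Of 16 genes of the unfolded protein response 6 rose, among them Xbp1 (341 and 185 TPM, log2 fold change 0.88 ± 0.0817), Sdf2l1, Calr, Manf and Pdia6. Of the 14 kinases, eIF2 subunits and eIF2B subunits tested, Eif2ak2 (PKR, log2 fold change 0.67) and Eif2s1 (0.33) rose. Among the other synthetases 1 of 12 cytosolic genes rose, Vars (log2 fold change 0.42), a share close to that of all tested genes. Of 17 mitochondrial genes 0 were called, with 0 at an unadjusted p under 0.05. No gene was called among 12 tested other amino acid transporters or 22 genes that convey amino acids to mTORC1, where 3 in each list had an unadjusted p under 0.05. So had 3951 of the 15043 tested genes.

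The call in 3A10t against EV no IL-2 was of an amino acid importer. Of 32 tested members, 1 was called, Slc38a2, and 10 had an unadjusted p under 0.05, beside 3911 of the 15043 tested genes. The 1 call compares with 1.6% of all tested genes called lower, and 0.452% called higher, so that the share of members is close to that of all genes. By a looser rule, an unadjusted p under 0.01 with an absolute log2 fold change over 0.25, 3 members were higher (Phgdh, Slc7a1 and Slc7a6), beside 2.83% of all tested genes, and 3 were lower (Slc38a2, Iars and Lars), beside 6.67%. The median over the members was 0.03, as over all genes.

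Slc38a2 encodes SNAT2, a sodium-coupled importer of small neutral amino acids whose transcript is known to rise on amino acid starvation. It measured 58.6, 39.4 and 44.1 TPM in 3A10t and 72.6, 77.2 and 86.3 TPM in EV no IL-2. Every 3A10t library was lower, with a log2 fold change of -0.74 ± 0.134 (adjusted p = 0.033). The call was lost without any of the EV no IL-2 replicates or without 3A10t replicate 2 or 3 (adjusted p from 0.053 to 0.14). Slc7a6, the y+LAT2 exchanger of arginine for glutamine, stood opposite, at 134, 203 and 162 TPM against 108, 109 and 104 TPM. All 3A10t libraries were higher (log2 fold change 0.61 ± 0.14, adjusted p = 0.055). Slc7a1 measured 23, 30.6 and 30 TPM against 19.0, 18.8 and 21 TPM, again without overlap. Its log2 fold change of 0.48 ± 0.118 had an adjusted p of 0.064, and of 0.047 with the replicate number as a block.

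Phgdh in 3A10t measured 64.0, 76.2 and 67.1 TPM, above all EV no IL-2 libraries (log2 fold change 0.36 ± 0.104, adjusted p = 0.087). Psat1 in 3A10t averaged 16.7 ± 2.33 TPM against 15.5 ± 1.53 TPM, and Sesn2 17.4 ± 2.43 TPM against 17.9 ± 0.538 TPM, both with overlap. Iars measured 30.9, 15.7 and 17.8 TPM in 3A10t against 30.5, 38.3 and 37.0 TPM in the EV libraries (log2 fold change -0.75 ± 0.216, adjusted p = 0.086). The 3A10t replicate 1 library lay among the EV libraries for Iars, and the other two lay below all of them.

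The 3A10t libraries differed among themselves in a way related to transcript length. The difference of the medians of long and short coding transcripts, relative to the mean of all libraries, was -0.02 in 3A10t replicate 1, -0.50 in replicate 2 and -0.20 in replicate 3, against -0.07 to 0.25 in the other 9 libraries (log2). Short means at most 2291 bases and long at least 3957 bases. Between 3A10t and EV no IL-2 the 9 short members had a median log2 fold change of 0.17, the 15 of middle length -0.01 and the 8 long members -0.31, where all coding genes had 0.16, -0.11 and -0.14. After each library was corrected for length, Slc38a2 had a log2 fold change of -0.55 (adjusted p = 0.038), Slc7a6 of 0.79 (0.066), Phgdh of 0.28 (0.11), Iars of -0.55 (0.13) and Lars of -0.24 (0.19). Without 3A10t replicate 1, 11 members were called, 5 higher and 6 lower, where 7.91% of all tested genes were called higher and 15.3% lower in the same fit, and without replicate 2 or 3, or without any EV no IL-2 library, 0 were. What part length had in these values was not tested.

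**Figure D3:**
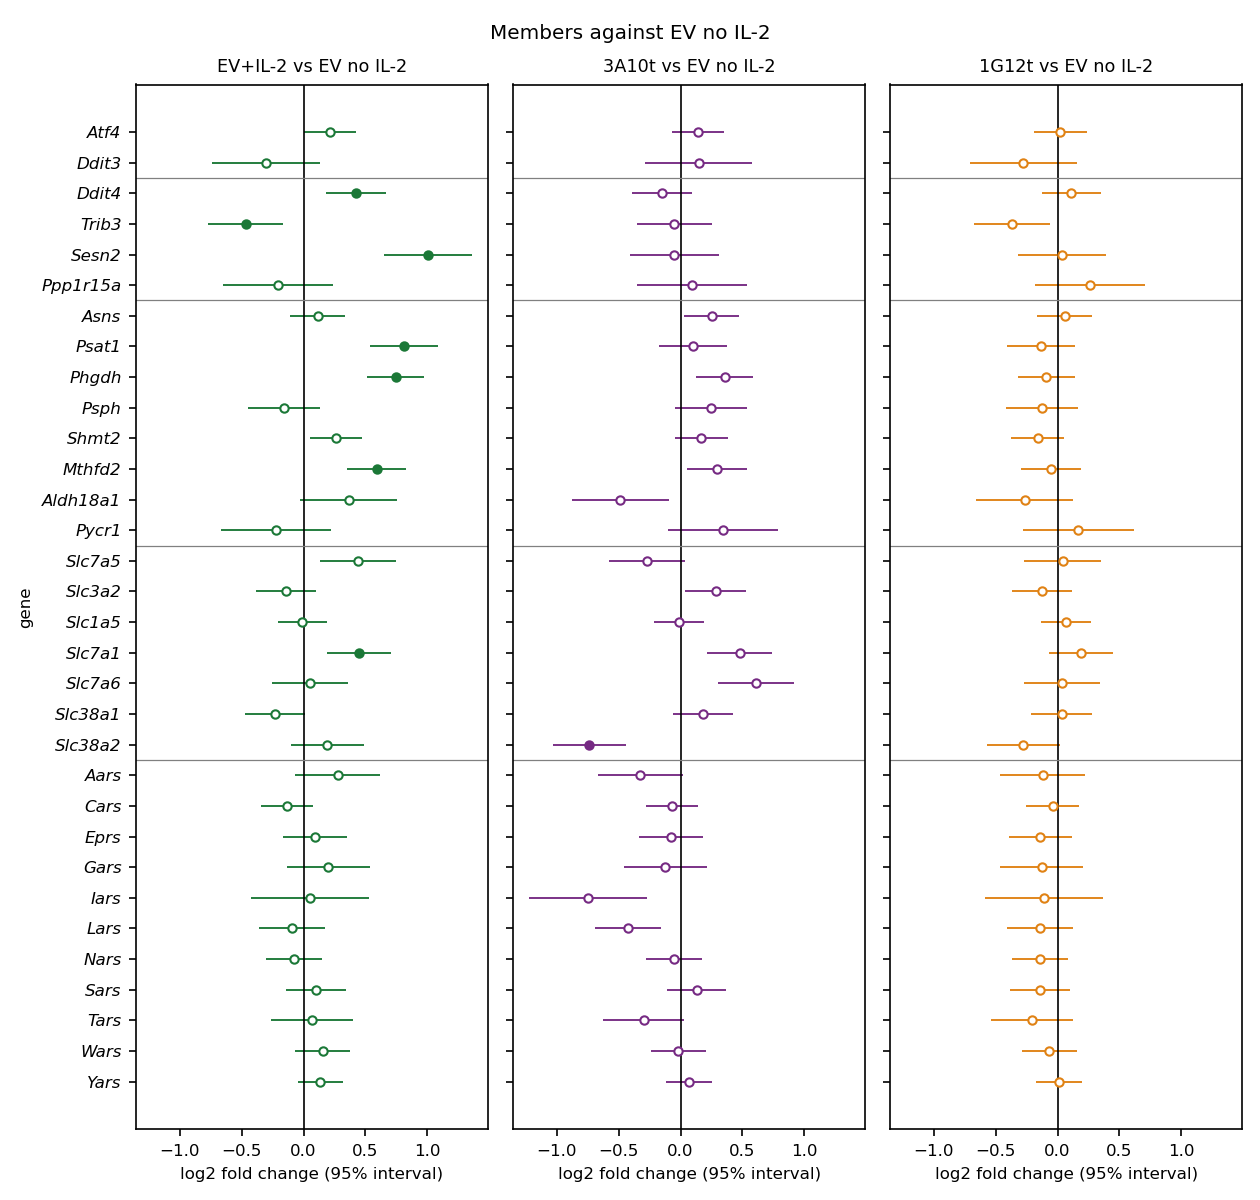
Log2 fold changes (points) with 95% intervals (lines) of the 32 tested members against EV no IL-2 in each of 3 comparisons, which share the EV no IL-2 libraries. Filled points were called at adjusted p under 0.05, which were 7 for EV+IL-2, 1 for 3A10t and 0 for 1G12t.

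In 1G12t against EV no IL-2 no member was called by limma, 1 had an unadjusted p under 0.05 (Trib3), and 0 met the looser rule. An unadjusted p under 0.05 was found for 1059 of the 15043 tested genes. Over all tested genes 0.0133% were called higher and 0.00665% lower, and 1.13% and 0.226% met the looser rule in each direction. The member log2 fold changes ran from -0.37 to 0.26 with a median of -0.10, and 20 of 32 were negative. All 3 1G12t libraries lay above EV no IL-2 for 1 member (Slc7a1), where 8.68% of all genes did so, and below for 5 (Trib3, Aldh18a1, Slc38a2, Slc3a2 and Lars), where 7.8% did so. Trib3 measured 52.0, 48.3 and 35.5 TPM in 1G12t against 58.5, 60.3 and 55.1 TPM (log2 fold change -0.37 ± 0.139, adjusted p = 0.7). Slc38a2 measured 67.1, 68.0 and 59.0 TPM against 72.6, 77.2 and 86.3 TPM (log2 fold change -0.28 ± 0.134, adjusted p = 0.71).

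The 95% intervals limit how far Phgdh, Psat1, Mthfd2 and Sesn2 could have moved in 1G12t. The interval of the log2 fold change was -0.32 to 0.14 for Phgdh, -0.41 to 0.14 for Psat1, -0.29 to 0.19 for Mthfd2 and -0.32 to 0.40 for Sesn2. In EV+IL-2 the lower bounds of the same genes were 0.52, 0.54, 0.35 and 0.65. For several members 1G12t replicate 3 lay away from the other two, with Ppp1r15a at 148 TPM against 83.1 and 78.4 TPM, Ddit3 at 41.7 TPM against 67.9 and 75.8 TPM, and Sesn2 at 24.7 TPM against 15.6 and 16.2 TPM. These libraries carry the same label, and the source of the difference was not tested.

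The tethers were also compared with each other. Between 3A10t and 1G12t, 2 of 32 members were higher in 3A10t (Phgdh and Slc7a6), beside 1.3% of all tested genes, and 0 were lower, beside 2.96% (5 lower at an unadjusted p under 0.05). In either direction 14 members had an unadjusted p under 0.05, beside 4470 of the 15043 tested genes. With TPM as deposited, without the scaling factors, 0 members were called higher and 2 lower, Ddit4 and Slc38a2, so that the direction of the calls depended on the scaling. Phgdh measured 64.0, 76.2 and 67.1 TPM in 3A10t and 56.2, 48.9 and 46.1 TPM in 1G12t, without overlap. Its log2 fold change was 0.45 ± 0.104 (adjusted p = 0.044), and 0.35 after length correction (adjusted p = 0.057). Slc7a6 measured 134, 203 and 162 TPM against 100, 102 and 129 TPM, also without overlap. Its log2 fold change was 0.58 ± 0.14 (adjusted p = 0.048), and 0.75 after length correction (adjusted p = 0.06).

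By the looser rule 5 members were higher in 3A10t than in 1G12t, beside 5.29% of all tested genes, and 1 was lower, beside 7.06%. Shmt2 (93.9 ± 2.03 and 75.0 ± 10.8 TPM), Mthfd2 (49.0 ± 4.75 and 38.4 ± 3.72 TPM) and Slc3a2 (189 ± 29.7 and 141 ± 12.5 TPM) joined the higher group, and Slc38a2 (47.4 ± 9.98 and 64.7 ± 4.94 TPM) was the lower gene. Slc3a2 passed with the replicate number as a block (log2 fold change 0.41, adjusted p = 0.049, against 0.057 without it). Slc3a2 and Slc7a6 form a heterodimer at the cell surface, and both were highest in 3A10t replicate 2, at 220 and 203 TPM. Of the 8 synthesis enzymes, 7 had positive log2 fold changes, with a median of 0.28 over the 8, and Aldh18a1 was the exception. Asns, Phgdh, Psph, Shmt2 and Mthfd2 have short transcripts, a class with a median of 0.19 over all coding genes here. Aldh18a1 has the longest transcript of the 8 (3527 bases). What part length had in these signs was not tested. Without 3A10t replicate 1, 12 members were called, 7 higher and 5 lower, where 11.7% and 15.9% of all tested genes were, and without any other of the 6 libraries, 0 were. For the 9 short members the median log2 fold change was 0.33 and for the 8 long members -0.15, where short and long genes overall had medians of 0.19 and -0.23.

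**Figure D4:**
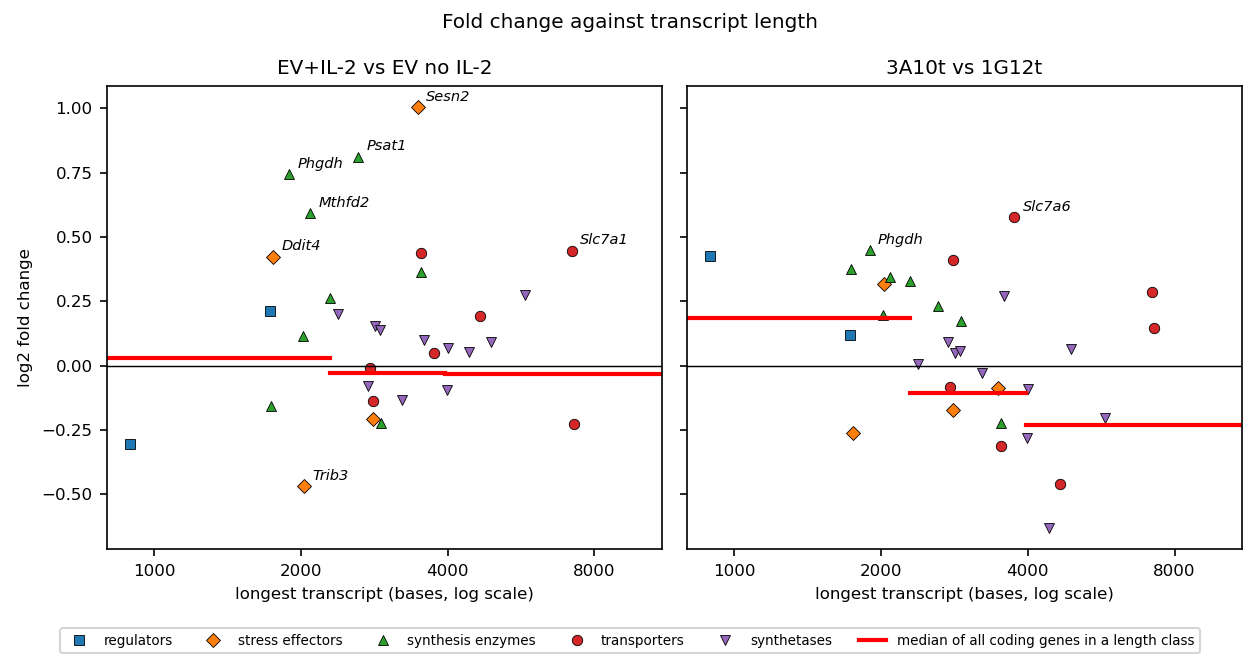
Log2 fold change of the 32 tested members against the length of their longest coding transcript (log axis), for EV+IL-2 against EV no IL-2 and for 3A10t against 1G12t. Red lines give the median of all coding genes in the short, middle and long classes, nearly flat on the left and falling from 0.19 to -0.23 on the right, and called members are named.

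Against EV+IL-2, Sesn2, Phgdh and Psat1 were lower in both tether groups, in comparisons that share the EV+IL-2 libraries with the first one. In 1G12t, 7 members were lower than in EV+IL-2, beside 10.9% of all tested genes, and 0 were higher, beside 9.69% (2 higher at an unadjusted p under 0.05). In either direction 12 members had an unadjusted p under 0.05, beside 4998 of the 15043 tested genes. Sesn2 had a log2 fold change of -0.97 ± 0.161, Psat1 of -0.94 ± 0.125, Phgdh of -0.84 ± 0.104 and Mthfd2 of -0.64 ± 0.109 (adjusted p from 0.00035 to 0.0023). Aldh18a1 (46.8 and 73.1 TPM, log2 fold change -0.63 ± 0.178, adjusted p = 0.03), Shmt2 (75.0 and 100.0 TPM, -0.42 ± 0.0962, adjusted p = 0.011) and Slc38a2 (64.7 and 90.1 TPM, -0.47 ± 0.134, adjusted p = 0.031) were also lower. The 1G12t libraries were below all EV+IL-2 libraries for each of the 7. No synthetase was called and 1 had an unadjusted p under 0.05.

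In 3A10t, 9 members were lower than in EV+IL-2, beside 13% of all tested genes, and 4 were higher, beside 10.3%. The lower members were Sesn2 (log2 fold change -1.05 ± 0.161), Ddit4 (-0.58 ± 0.109), Psat1 (-0.71 ± 0.125), Phgdh (-0.39 ± 0.104), Aldh18a1 (-0.85 ± 0.178), Slc7a5 (-0.71 ± 0.139), Slc38a2 (-0.93 ± 0.134), Aars (-0.60 ± 0.157) and Iars (-0.80 ± 0.216), with adjusted p from 0.00094 to 0.023. The mean of Phgdh in 3A10t, 69.1 ± 6.38 TPM, lay below the 90.7 ± 7.91 TPM of EV+IL-2. It lay above the 50.4 ± 5.19 TPM of 1G12t and the 53.7 ± 3.54 TPM of EV no IL-2. Against EV no IL-2 the difference was not called (limma adjusted p = 0.087, and 0.11 after length correction). Mthfd2 (49.0 and 60.4 TPM) was lower in every 3A10t library without a call (log2 fold change -0.30 ± 0.109, adjusted p = 0.071).

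The 4 members higher in 3A10t than in EV+IL-2 were Slc3a2 (189 and 140 TPM, log2 fold change 0.42 ± 0.11), Slc7a6 (167 and 111 TPM, 0.56 ± 0.14), Slc38a1 (47.4 and 35.4 TPM, 0.41 ± 0.111) and Psph (76.1 and 56.6 TPM, 0.40 ± 0.133), with adjusted p from 0.017 to 0.049. These are 4 of the 32 tested members, a share close to the 10.3% of all tested genes called higher. The Psph call was lost without any EV+IL-2 library or without 3A10t replicate 2 (limma adjusted p from 0.059 to 0.15). The overlap of Psph with Cct6a applies here too. Of the light chains that share Slc3a2, Slc7a6 was above EV+IL-2 in 3A10t and Slc7a5 (8.57 and 14.5 TPM) below it. Of the related importers, Slc38a1 was above and Slc38a2 below. In 1G12t too, Slc38a1 (42.5 TPM, adjusted p = 0.13) lay above every EV+IL-2 library, and Slc38a2 and Slc7a5 (10.8 TPM, adjusted p = 0.068) below, whereas Slc7a6 overlapped. Between 3A10t and EV no IL-2, Slc7a5 and Slc38a1 overlapped (adjusted p = 0.23 and 0.31). With the replicate number as a block, Trib3 passed as higher (56.3 and 41.6 TPM, log2 fold change 0.42 ± 0.139, adjusted p = 0.023 against 0.05 without it), and Lars as lower (37.0 and 46.5 TPM, log2 fold change -0.33 ± 0.12, adjusted p just under 0.05 against 0.069). Without EV+IL-2 replicate 1 the count of called members fell to 6, all lower, and in a fit of only the 6 libraries compared to 4, also all lower. After length correction Aars missed the threshold (log2 fold change -0.46, adjusted p = 0.058).

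The neighboring pathways in the tether groups had few calls against EV no IL-2. In 3A10t Eif2ak3, which encodes PERK, averaged 8.73 ± 1.74 TPM against 18.7 ± 0.976 TPM (log2 fold change -1.03 ± 0.138, adjusted p = 0.011) and was also lower than in 1G12t (17.0 ± 2.12 TPM, log2 fold change -0.90, adjusted p = 0.016). Stc2 (22.2 and 15.7 TPM, log2 fold change 0.47, adjusted p = 0.044) and Shmt1 (16.2 and 9.84 TPM, 0.66, adjusted p = 0.037) rose in 3A10t, and Mtr, the methionine synthase, fell (6.49 and 10.5 TPM, -0.62, adjusted p = 0.038). These calls held in 5 of 17 alternatives for Stc2 and in 9 each for Shmt1 and Mtr, and after length correction the adjusted p was 0.059, 0.03 and 0.063. In 1G12t against EV no IL-2, limma called 0 of the other ATF4 targets (2 at an unadjusted p under 0.05), folate and amino acid enzymes (1), transporters (0) and unfolded protein response genes (0). Between 3A10t and 1G12t the taurine transporter Slc6a6 (99.7 and 70.1 TPM), the mTORC1 regulator Rraga (44.8 and 33.3 TPM) and Eef1e1 (62.2 and 46.9 TPM) were higher in 3A10t, and Mtr (6.49 and 9.81 TPM) was lower. Of 17 alternatives, 8 kept the call of Slc6a6 and 6 that of Rraga, Eef1e1 and Mtr each, and after length correction Rraga (adjusted p = 0.074), Eef1e1 (0.057) and Mtr (0.15) missed the threshold. Against EV+IL-2, Stc2 was lower by log2 fold changes of -1.66 in 3A10t and -1.86 in 1G12t, Gldc by -2.92 and -3.08, and Xbp1 by -0.69 and -0.88. Aldh1l2, a mitochondrial folate enzyme, was higher than in EV+IL-2 in both, at 1.72 TPM in 3A10t, 1.13 TPM in 1G12t and 0.215 TPM in EV+IL-2 (adjusted p = 0.0065 and 0.034). Of 13 alternatives that tested it, 12 kept the 3A10t call and 7 the 1G12t call. With quantile normalization neither passed (adjusted p = 0.083 and 0.64), and leaving out any EV+IL-2 library ended the 1G12t call. These levels are low, and without a filter on low TPM 27.2% and 25.8% of all genes were called higher than in EV+IL-2.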

How the data were processed

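RNA was sequenced from 12 Treg cultures, 3 in each of 4 groups. Per the labels and the methods of the study, full-length cDNA was primed with oligo-dT, fragmented by transposase and sequenced from both ends (50 bp). Reads were trimmed by the authors with cutadapt 1.18, then aligned to mm10 with STAR 2.5.3 and quantified per gene with RSEM 1.3.0 on GENCODE GRCm38 M23, and the deposited values are TPM per gene symbol. Tests of the authors with DESeq2 1.26 were made on counts, which were not used here. Each library was divided by a median-of-ratios factor, genes with a mean of at least 1 TPM were kept, and log2(TPM + 1) was fitted by limma 3.58.1 (R 4.3.3) with a mean-variance trend over all 12 libraries. Two-sided p-values were adjusted by Benjamini and Hochberg over 15043 genes. The fit was tested on simulated data.

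The replicate number marks a shared sort in the labels, so a fit with it as a block is given wherever it changed a call. Deviations of same-numbered libraries from their group means correlated at -0.105 to 0.155 (mean 0.0409, 18 pairs), against a mean of -0.0205 over 36 pairs with different numbers. P-values measure the spread between sorts of 1 pool of mice. Members, lists and tests were chosen with earlier results of these data known. All members are named, with fold changes for those called or past the looser rule, a few others side by side, and at most 5 called genes of each other list in a comparison. Transcript lengths and overlaps came from GENCODE M21 (GRCm38), and the length correction removed a lowess curve of span 0.3 from each library. Promoters came from RefSeq (GRCm38.p6). Alternatives were other pseudocounts (0.1 and 5), filters, scalings and fits, and leaving out each library.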

Additional observations from a re-analysis of the deposited data

How the results depend on the processing

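No fold change of a member called in a comparison changed sign under any alternative, and 12 of the 30 calls held under all 17. Between EV+IL-2 and EV without IL-2 the count of members called was 7, and became 4 with no filter on low TPM and 13 in a fit of only the 6 libraries compared. For 3A10t against EV no IL-2 it was 1, and became 0 with no filter, 3 at a mean of at least 5 TPM, 2 with TPM as deposited, 2 with the replicate block, 0 with only the 6 libraries and 6 at the looser rule. For 3A10t against 1G12t it was 2, and became 1 with a pseudocount of 5 or quantile normalization, 0 with no filter, with length correction (with or without the replicate block), with no trend or with only the 6 libraries, 4 at a mean of at least 5 TPM and 6 at the looser rule, and stayed at 2 with TPM as deposited, but with both lower in place of both higher. For 3A10t against EV+IL-2 it was 13, and became 4 with only the 6 libraries. For 1G12t against EV+IL-2 it was 7, and became 11 with length correction and 12 with the replicate block added to it. Leaving out single libraries gave 4 to 5 members for EV+IL-2 and 0 to 11 for 3A10t against EV no IL-2, 0 to 12 for 3A10t against 1G12t, 6 to 16 for 3A10t and 5 to 6 for 1G12t against EV+IL-2. The count for 1G12t against EV no IL-2 was 0 throughout. A fit without a filter tested 50219 genes, and a fit of 6 libraries estimated the spread from fewer libraries; the cause of the other shifts was not tested. The replicate block changed no calls beyond those given in the text.

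Over all genes, 3A10t against 1G12t went from 196 higher and 446 lower to 96 and 1300 with TPM as deposited, where all genes had a median of -0.18 (log2) in place of -0.02. Against EV no IL-2, 3A10t went from 68 and 240 to 3 and 1 with only the 6 libraries. Depth is unknown, so that the precision of low members such as Pycr1 could not be judged from counts.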
